A study of Mus musculus with 35 samples.

Results

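Ribosomal proteins are the protein parts of the ribosome, the machine that translates mRNA. In the cytosol, Rpl and Rplp proteins sit with ribosomal RNA in the large subunit, which joins amino acids, and Rps proteins and Rpsa in the small subunit, which reads the codons. The subunits are put together in the nucleolus, so cells coordinate these genes with those for assembly factors and ribosomal RNA synthesis, and most of their mRNAs begin with a run of pyrimidines, the TOP motif, through which mTOR signaling adjusts their translation. The genes were taken by name: symbols that begin with Rpl or Rps followed by a digit, together with Rplp0, Rplp1, Rplp2 and Rpsa, without the Rps6k kinases and without symbols containing -ps, which mark pseudogenes. This gave 88 of the 24421 genes in the files, 53 Rpl and Rplp symbols and 35 Rps and Rpsa symbols. Rps19bp1, which the rule takes in, encodes a protein that binds RPS19 and is not itself a ribosomal protein.

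RNA-seq was performed on 35 libraries of poly(A) RNA from immortalized mouse embryonic fibroblasts that carried 1 null and 1 floxed allele of Nelfb, the gene for the NELFB subunit of the negative elongation factor NELF. The 20 population libraries came from cells with an empty lentiviral vector (EV) or with wild-type NELFB (WT), the alanine-substitution mutants MT194 or MT486, or both mutations together (DMT). Each was taken 7 days after an adenovirus with Cre and GFP (Cre), which deletes the floxed allele, or with GFP alone (GFP), in 2 experiments. The 15 clone libraries came from stable lines grown from single cells after Cre, 3 per construct. MT194 was made to disrupt binding to NELFA and NELFC, and MT486 and the C-terminal truncation Δ-C60 to disrupt binding to NELFE. By the vector names in the labels, WT, MT194 and MT486 clones carried the lentiviral vector used in the populations and WT(N48) and Δ-C60 clones a retroviral one, whereas the study's methods list Δ-C60 among the lentiviral constructs. Where the labels hold, vector and construct cannot be told apart between these sets. Every clone is 1 line, and single clones differ for reasons other than their construct.

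Nelfb itself checks the labels. In CPM (read counts scaled to a common library size after TMM normalization), EV-Cre libraries had 7.974 and 5.462 in experiments 1 and 2, and EV-GFP libraries 46.12 and 39.55. This count can include reads of the introduced cDNA. WT-Cre libraries had 75.86 and 60.54, WT-GFP 97.49 and 82.78. Cre libraries had 103.8 and 118.5 with MT194, 116 and 127.9 with MT486, and 168.6 and 208.3 with DMT. Each of these stood above its GFP partner, which lay between 61.64 and 92.89. The clones labelled WT differed among themselves, with 10.3, 109.4 and 15.53, so that 2 of these 3 libraries lay below the EV-GFP populations, on scales computed separately, and comparisons with them are given as comparisons with the libraries labelled WT. The other clones had 188.9, 215.6 and 146.6 (MT194), 180.3, 158.3 and 135.2 (MT486), 241.3, 127.3 and 56.26 (WT(N48)) and 247.4, 208.2 and 218 (Δ-C60). MT486 clones 1 and 2 differed by more than sampling noise but far less than any other pair of one group (chi-square per gene 5.06, against 32.4 to 349), so the spread of this group may be understated. As a sum, fibroblast markers were high in all libraries. The 10 genes summed to between 21100 and 45700 CPM in the populations and between 7540 and 26100 in the clones. Fn1 led them, with means of 14000 and 6380 CPM, and in each set 1 of the 10 stayed under 1 CPM in every library. Epithelial markers summed to at most 1.29 and 2.02 CPM and endothelial markers to at most 0.879 and 4.74. Immune markers summed to at most 5.37 and 5.98 CPM, led by Cd68, and muscle markers to at most 0.364 and, in the clones, 13.5, led by Myod1.

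The ribosomal protein genes took a small share of the reads. Reads on genes numbered 17969149 to 29080007 per population library and 18413284 to 27816723 per clone library, of which 86246 to 209613 and 193706 to 343610 fell on the 88 genes. Their share ran from 0.412% to 0.923% among population libraries and from 0.809% to 1.42% among clone libraries. Of the 88 genes, 36 had at least 1000 reads on average and 27 had under 100. The filter on low counts kept 81 genes in either set. The others were Rpl26 (0 to 2 reads per library), Rps29 (0 to 11), Rps27rt (0 in every library) and the paralogs Rpl10l (0 to 1), Rpl39l (0 to 14), Rpl3l (0 to 7) and Rps4l (0 to 4). Rpl26 and Rps29 are core parts of every ribosome.

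How the reads were placed was examined beside these levels. The reads were 50 bases long, were aligned to the mm10 genome without splicing and were dropped where the mapping quality was under 30, and ribosomal protein genes have short exons and many processed pseudogenes. In the GENCODE annotation of the same genome, 86 of the 88 genes had a protein-coding transcript, with a median of 5 exons over 817.5 bases. A median of 42.9% of the 50-base stretches of these transcripts lay inside 1 exon and occurred in no other annotated locus, and are called placeable here. For 12460 other genes tested in the populations this median was 83.5%. Under 10% of the stretches were placeable in 7 of the ribosomal protein genes (8.14%) and in 16 of the others (0.128%). The limit can be read from the sequences. For each gene the coding stretch that occurs in most other annotated loci was found, in lower case throughout as the whole stretch is what is shared:
Rpl7a, exon 5 of 8, chr2:26912370-26912419, plus strand, in 42 other loci: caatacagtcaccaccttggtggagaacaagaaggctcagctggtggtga
Rps2, exon 4 of 6, chr17:24721246-24721295, plus strand, in 33 other loci: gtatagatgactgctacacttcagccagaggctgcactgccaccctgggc
Rplp0, exon 3 of 7, chr5:115560759-115560808, plus strand, in 4 other loci: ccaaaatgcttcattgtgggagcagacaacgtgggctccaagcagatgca
Rpl10a, exon 3 of 6, chr17:28328997-28329046, plus strand, in 3 other loci: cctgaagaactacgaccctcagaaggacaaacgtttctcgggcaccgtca
Rpl8, exon 6 of 6, chr15:76906138-76906187, plus strand, in 1 other locus: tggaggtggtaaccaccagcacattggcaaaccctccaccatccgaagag
A read from the first stretch matches 42 other annotated loci, and one from the most shared coding stretch of Rpl8 matches 1 other. Neither read has a single place. Only annotated transcripts were searched, not the whole genome.

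Per length of transcript, the highest mean levels in the populations included those of Rplp1 at 994 CPM per kb, Rpl8 at 721, Rps15 at 485 and Rplp0 at 456. Rplp0 forms the base of the stalk on the large subunit that recruits elongation factors, and Rplp1 and Rplp2 are its tip. At the other end stood Rps27rt and Rpl10l, at 0 CPM per kb, Rpl39l at 0.00278, Rpl26 at 0.00719 and Rpl3l at 0.057. Rpl5 and Rpl11, which form the 5S particle of the large subunit and bind MDM2 when assembly fails, had 1.06 and 2.59 CPM per kb. Across 80 genes the mean CPM and the placeable share had a Spearman rho of 0.39, a description over genes that share the same libraries. Ribosomes hold most of these proteins in equal number, so that these levels are not proportions of ribosome parts. How much of the order comes from placement was not tested.

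**Figure D1:**
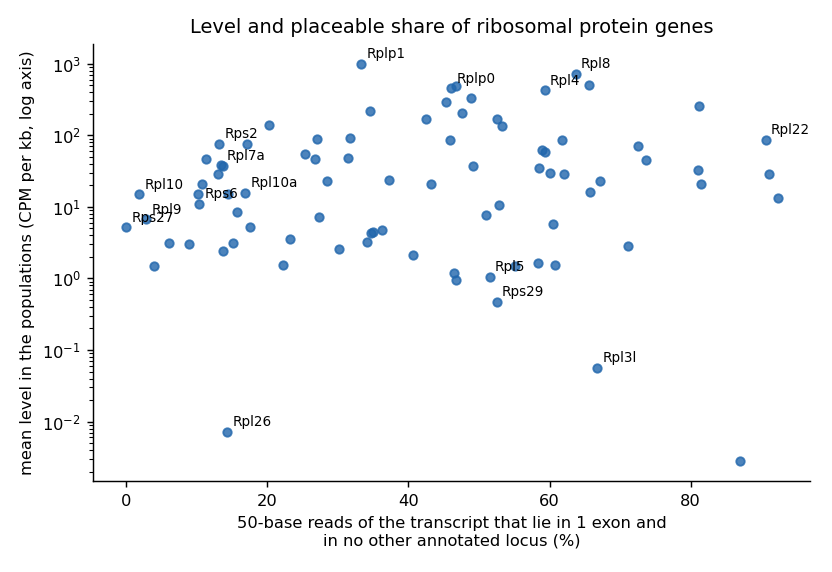
Mean level in the 20 populations (CPM per kb of transcript, log axis) against the share of 50-base stretches that lie in 1 exon and in no other annotated locus (%), 1 point per ribosomal protein gene with reads. Rps27 and Rpl10 (0% and 1.87% placeable) lie far below Rpl8 (63.7%), while Rpl5 and Rps29 are low although over 50% of their stretches are placeable.

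Start sites were examined because most of these genes share a start within pyrimidines. RefSeq (GRCm38.p6) gave 79 start windows for 67 of the genes, each from 50 bases before to 50 after the annotated start. A run of at least 8 bases of C or T on the strand of the gene was present in 74.7% of these windows, and in 35.7% of the windows of all 27025 genes. On the opposite strand the shares were 22.8% and 38.1%. Words of 6 pyrimidines were searched over the whole windows, also outside such runs. CTCTTT stood in 27.8% of the windows on the strand of the gene (3.99% over all genes) and in 1.27% on the other (3.84%). TCTTTC, which overlaps it, stood in 22.8% (3.89%) and in 3.8% (3.65%), and CTTCCT in 26.6% (7.26%) and in 7.59% (8.14%). CTTTCT stood in 13.9% (5.1%) and in 2.53% (4.92%), and CTTTTC in 12.7% (3.69%) and in 2.53% (3.33%). A window is shown for 4 of the genes, with the longest run in capitals, to let the runs and their place be seen:
Rps9, chr7:3704027-3704056, plus strand: ccgccttgTCTCTCTTTgtctcgggcctga
Rpl4, chr9:64173405-64173434, plus strand: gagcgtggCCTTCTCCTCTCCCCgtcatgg
Rpl13a, chr7:45128722-45128751, minus strand: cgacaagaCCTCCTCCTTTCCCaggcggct
Rplp0, chr5:115559470-115559499, plus strand: ccgcctggTTCTCCTataaaaggcacacgc
The run in Rplp0 is shorter than 8 bases, as are the longest in Rpl23, Rps4x, Rps3, Rpsa and others, and that of Rpl4 begins 26 bases downstream of the annotated start. These matches describe the sequence and do not show that a start or a factor is used.

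The summed share separated the EV and WT populations after Cre. It was 0.616% and 0.412% of reads on genes in EV-Cre (experiments 1 and 2) against 0.834% and 0.497% in EV-GFP, which made ratios of 0.739 and 0.829 within the experiments. WT-Cre had 0.923% and 0.726%, and WT-GFP 0.838% and 0.619%, with ratios of 1.1 and 1.17. In each experiment WT-Cre was the highest and EV-Cre the lowest of the 10 libraries, and WT-Cre exceeded EV-Cre by 1.5 and 1.76 times. MT486-Cre had 0.814% and 0.484%, close to MT486-GFP with 0.837% and 0.474% (ratios 0.973 and 1.02). MT194-Cre had 0.748% and 0.433% against 0.861% and 0.514% in MT194-GFP (0.869 and 0.842), and DMT-Cre had 0.635% and 0.461% against 0.83% and 0.515% in DMT-GFP (0.765 and 0.895). All 10 libraries of experiment 1 together had 0.616% to 0.923% (median 0.832%) and those of experiment 2 0.412% to 0.726% (median 0.49%), so that the comparisons in this paragraph are within an experiment. An exact permutation test of 1 group against another, with 2 libraries each, cannot reach 0.05 for this value, and none is given.

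**Figure D2:**
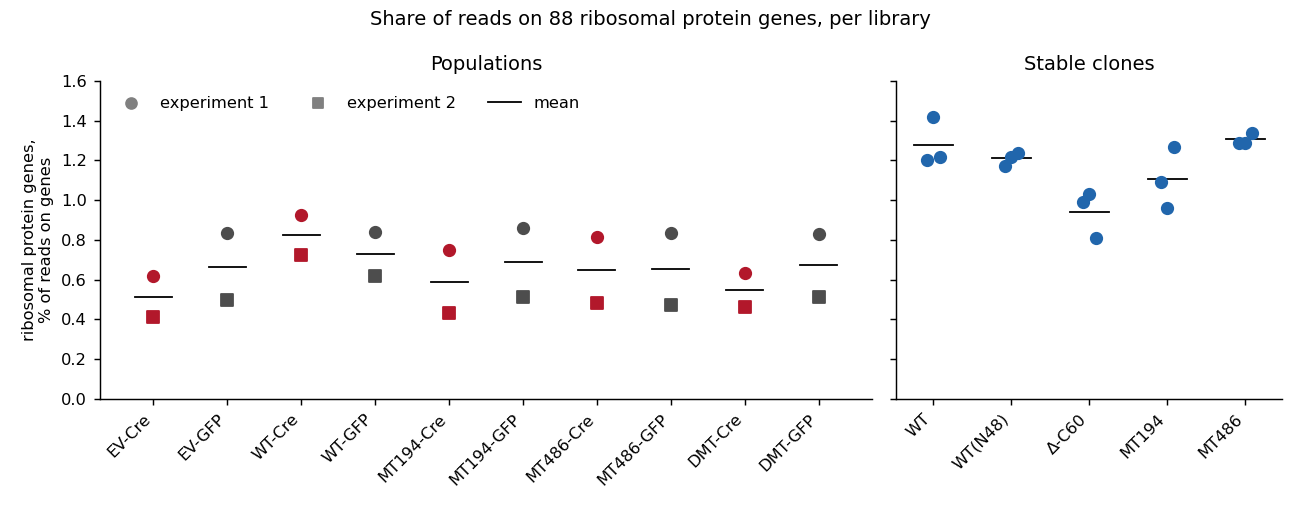
Share of reads on genes that fell on the 88 ribosomal protein genes (%), 1 point per library, in the populations (circles experiment 1, squares experiment 2) and in the stable clones, with the mean of each group as a line. EV-Cre is the lowest and WT-Cre the highest of the populations within each experiment, while the lines for population groups pool both experiments. The 3 Δ-C60 clones (0.809% to 1.03%) lie below all WT(N48), MT486 and WT clones.

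Reads off genes and reads on pseudogene symbols also differed between these libraries. Reads on no annotated gene made up 15.5% and 18.8% in EV-Cre against 13.9% and 17.7% in EV-GFP, while WT-Cre had 11.7% and 15.2% against 13.7% and 16.7% in WT-GFP. They made up 14.2% and 15.3% in MT194-Cre against 12.9% and 18.2% in MT194-GFP, and 15.8% and 15.6% in DMT-Cre against 14.2% and 19.9% in DMT-GFP. In MT486-Cre they were 14.6% and 19.7%, against 14.8% and 21.3% in MT486-GFP. Over all populations they were 11.7% to 15.8% in experiment 1 and 15.2% to 21.3% in experiment 2, and 9.14% to 12% in the clones. The 6 genes with pseudogene symbols took 0.0195% and 0.0133% of reads in EV-Cre against 0.0284% and 0.0166% in EV-GFP. WT-Cre had 0.0287% and 0.0236% against 0.0262% and 0.0193% in WT-GFP. MT194-Cre had 0.0276% and 0.0158% against 0.0289% and 0.0161% with GFP, and MT486-Cre 0.0306% and 0.0151% against 0.0307% and 0.0175%. DMT-Cre had 0.0239% and 0.014% against 0.0278% and 0.0152% with GFP. The part of either measure in the results was not tested.

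The first comparison asked how Cre, which deletes the floxed allele, changes these genes in cells with the empty vector. Loss of NELFB and Cre itself cannot be told apart in it. In EV cells many genes of high level had lower values after Cre and several of low level had higher ones. Rplp0 (mm10, chromosome 5, 115559467 to 115563727) had 490 and 322.2 CPM in EV-Cre against 870.8 and 559.1 in EV-GFP. Rpl39 (chromosome X, 37082520 to 37085402), a small protein in the exit tunnel, had 30.41 and 22.36 CPM in EV-Cre against 56.69 and 39.79 in EV-GFP. Rpl23 (chromosome 11, 97777527 to 97782437), at the face between the subunits, had 41.99 and 36.35 in EV-Cre against 85.64 and 57.98 in EV-GFP. For all 3 both EV-Cre libraries lay below both EV-GFP libraries, and no share of all genes is given for such a separation. Rpl10a (chromosome 17, 28328471 to 28331033), which builds the L1 stalk, went the opposite way, with 15.9 and 24.67 CPM in EV-Cre against 9.44 and 14.04 in EV-GFP, again without overlap. Rps10, near the mRNA entry of the small subunit, had 2.433 and 2.872 CPM in EV-Cre against 1.524 and 1.463 in EV-GFP, from 27 to 61 reads per population library.

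In the fit of 1 mean per group (edgeR's quasi-likelihood test, Benjamini-Hochberg adjustment over 13805 genes, called at an adjusted p under 0.05), Rps10 was the only gene of the 81 called, with log2 0.83 (standard error 0.25, adjusted p = 0.0441). Of all genes 6.43% were called higher, and the call was lost when any of the 4 libraries was left out (adjusted p 0.0802 to 0.222), when these groups were fitted alone and without the filter on low counts. The median over the 81 genes was −0.12, with 30 above 0 and 51 below, and the median of all genes was 0, with 50.1% above 0. Within the experiments the median was −0.20 and −0.02, and with 1 library left out, which sets the experiments unequally against each other, it ran from −0.35 (without EV-GFP 2) to 0.10 (without EV-GFP 1). The experiment numbers pair the populations, since the deviations of same-numbered libraries went together, and with the experiment as a block 7 genes were called higher and 23 lower, where 21.2% and 21.8% of all genes were. Rpl39 (−0.87, standard error 0.13, adjusted p = 5.11e-05), Rpl23 (−0.85, adjusted p = 7.2e-05), Rplp0 (−0.81, adjusted p = 8.11e-05), Rps4x (−0.65, adjusted p = 0.000123) and Rps9 (−0.62, adjusted p = 0.000383) fell with the smallest p in this fit, all by edgeR. Rpl10a (0.78, adjusted p = 0.000508), Rps10 (0.82, adjusted p = 0.00647), Rpl28 (0.90, adjusted p = 0.011), Rpl27 (0.83, adjusted p = 0.0116) and Rpl36 (0.64, adjusted p = 0.0121) rose. The calls were divided by level. Of 52 genes whose mean reached 10 CPM, 1 was called higher and 22 lower (median −0.30), and of the 29 below it 6 higher and 1 lower (median 0.24). Of all genes at or above that level 22.3% were called higher and 25.4% lower (median −0.02), and of those below it 19% and 13.9% (median 0.11). Of 49 large-subunit symbols 5 were called higher and 14 lower, and of 32 small-subunit symbols 2 higher and 9 lower, beside the 21.2% and 21.8% of all genes.

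**Figure D3:**
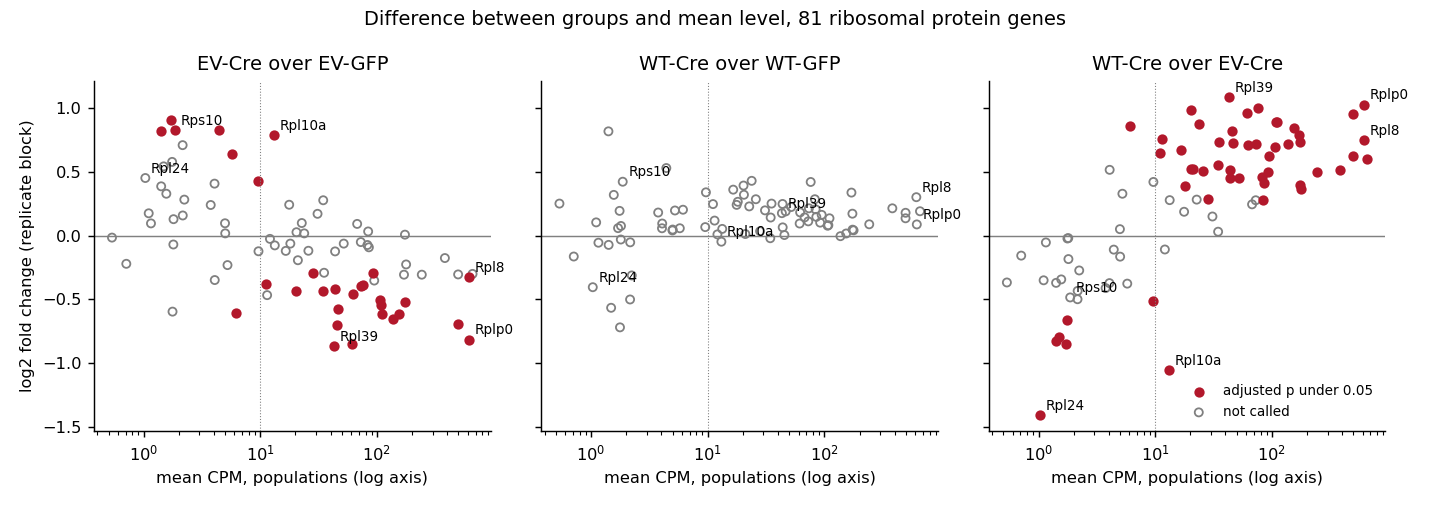
Log2 fold change (with the experiment as a block) against the mean CPM in the populations (log axis) for the 81 genes tested, in EV-Cre over EV-GFP, WT-Cre over WT-GFP and WT-Cre over EV-Cre. Filled points have an adjusted p under 0.05, the dotted line marks 10 CPM, and Rplp0 and Rpl39 fall in EV, whereas no gene is called in WT.

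With WT NELFB present no ribosomal protein gene was called after Cre. Rplp0 had 899.3 and 725 CPM in WT-Cre and 867.8 and 667.8 in WT-GFP, Rpl39 had 52.68 and 56.53 in WT-Cre and 55.4 and 43.31 in WT-GFP, and the ranges overlap for both. None of the 81 genes was called with or without the block (0.0217% of all genes without it and 5.61% with it), none had an unadjusted p under 0.05 in edgeR (6.22% of all genes), and DESeq2 called 0 (0.565%). The median was 0.13, with 66 genes above 0 and 15 below, and 48.5% of all genes were above 0. Rpl27 had 5.132 and 4.914 CPM in WT-Cre and 3.572 and 3.404 in WT-GFP (log2 0.53, standard error 0.26, adjusted p = 0.822 in edgeR). A p over the threshold does not show that Cre was without effect here.

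The next comparison asked how WT NELFB changes cells that have lost the floxed allele, and it shares the EV-Cre libraries with the first. Rplp0 was 899.3 and 725 CPM in WT-Cre against 490 and 322.2 in EV-Cre, and Rplp1 705.5 and 568 against 381.8 and 280.5. Rpsa, a small-subunit protein also known as a laminin receptor, had 31.83 and 26.81 CPM in WT-Cre and 17.75 and 12.29 in EV-Cre. All 3 genes were without overlap, and no share of all genes is given for this. Rpl10a had 8.732 and 10.35 CPM in WT-Cre against 15.9 and 24.67 in EV-Cre, and Rpl24 0.4552 and 0.811 against 1.171 and 2.213, from 8 to 47 reads per library. Rpl19, which takes part in the bridges between subunits, was called without the block, with 14.4 and 14.26 CPM in WT-Cre and 6.577 and 10.31 in EV-Cre (log2 0.76, standard error 0.21, adjusted p = 0.0457 in edgeR). It was 1 of 81 genes, where 4.15% of all genes were called higher, and the call was lost without EV-Cre 1, WT-Cre 1 or WT-Cre 2 (adjusted p 0.162 to 0.226), with the groups alone, with library size alone and without the filter. The median was 0.38 (0.25 to 0.56 with 1 library left out), with 55 genes above 0 (48.5% of all genes), and 21 of the 81 had an unadjusted p under 0.05 (23.7% of all genes).

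With the block 44 genes were called higher in WT-Cre and 7 lower, where 20.3% and 19.8% of all genes were. Among the higher genes with the smallest p were Rpl39 (log2 1.08, standard error 0.13, adjusted p = 8.9e-06), Rplp0 (1.02, adjusted p = 1.38e-05), Rps9 (0.84, adjusted p = 3.19e-05) and Rpl23 (0.96, adjusted p = 3.52e-05), by edgeR with the block. Rplp1 (0.95, adjusted p = 4.96e-05) and Rplp2 (0.46, adjusted p = 0.0497) of the stalk were higher as well. The genes called lower included Rpl10a (−1.05, adjusted p = 5.13e-05), Rpl24 (−1.40, adjusted p = 0.00401), Rpl12, Rpl28, Rps13 and Rps28. At or above 10 CPM 43 of 52 genes were called higher and 1, Rpl10a, lower (median 0.57). Below it 1 of 29 was higher and 6 lower (median −0.35). Of all genes, 24.8% were higher and 19.7% lower at or above 10 CPM (median 0.02), and 10.5% and 19.9% below it (median −0.15).

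**Figure D4:**
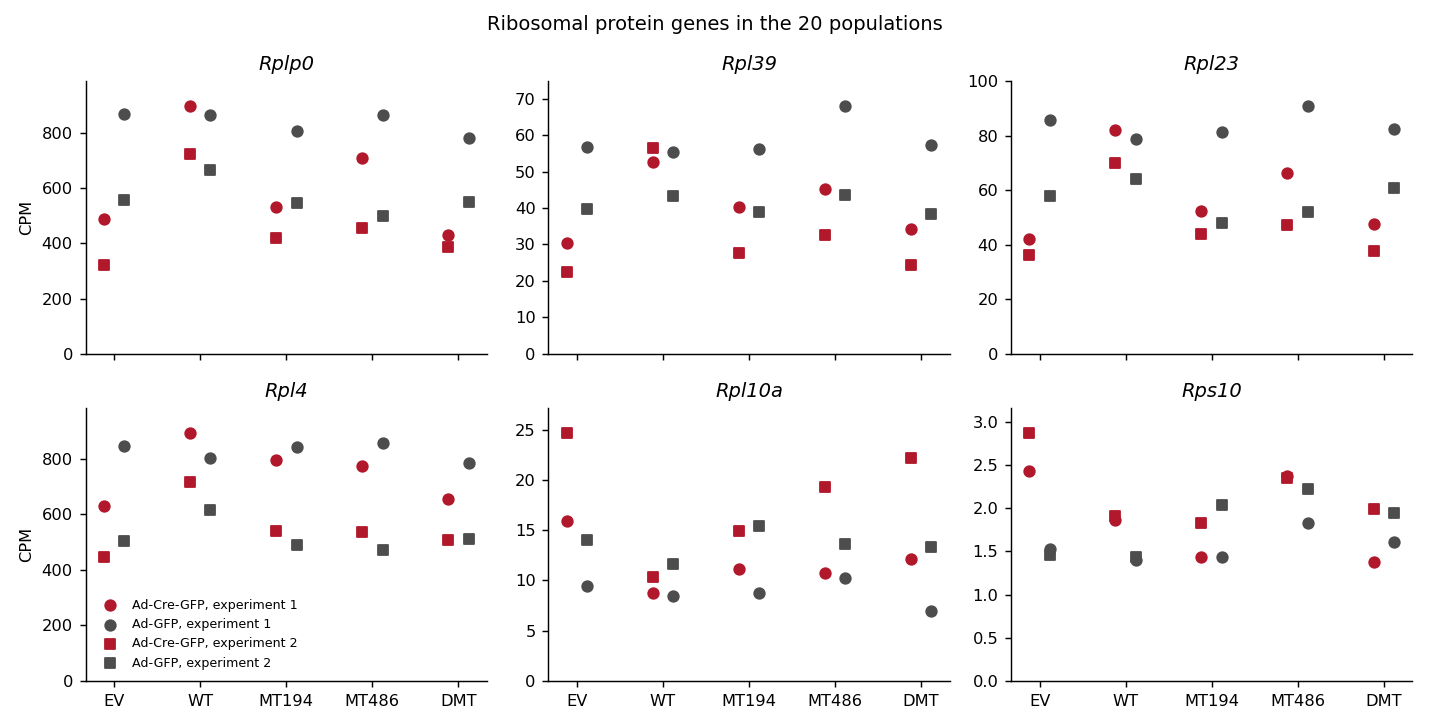
CPM of Rplp0, Rpl39, Rpl23, Rpl4, Rpl10a and Rps10 in each of the 20 populations (red Cre, grey GFP; circles experiment 1, squares experiment 2; axes from 0). EV-Cre and DMT-Cre are low for Rplp0, Rpl39 and Rpl23 and high for Rpl10a within each experiment, WT-Cre is not, and Rpl4 is lower in experiment 2 in every group.

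Of the mutant populations, DMT had the most calls with the block, among these genes as among all genes. Without it 1 gene, Rpl27, a large-subunit protein, was called higher after Cre, with 6.497 and 4.863 CPM against 2.807 and 3.276 (log2 0.90, standard error 0.25, adjusted p = 0.039 in edgeR, from 54 to 170 reads per library). Of all genes 4.9% were called higher, and the call was lost when any of the 4 libraries was left out (adjusted p 0.0548 to 0.255), with the groups alone, with library size alone and without the filter. The median of the 81 was −0.14 (−0.31 to 0.04 with 1 library left out). With the block 3 genes rose (20% of all genes) and 15 fell (20.8%), among them Rps4x (−0.61, adjusted p = 0.000224), Rpl23 (−0.75, adjusted p = 0.000242), Rpl39 (−0.69, adjusted p = 0.000379) and Rplp0 (−0.67, adjusted p = 0.000514), and Rpl10a (0.75, adjusted p = 0.000835) and Rpl35 (0.75, adjusted p = 0.0223) rose. Rplp0 had 431.6 and 387.4 CPM in DMT-Cre against 781.6 and 549.4 in DMT-GFP.

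In the single mutants the block gave 7 and 4 calls. In MT194 cells no gene was called without the block (4.49% of all genes; 3 of the 81 and 16.4% of all genes with an unadjusted p under 0.05; 0 and 8.17% by DESeq2), and with it Rplp0 (−0.48, adjusted p = 0.0097), Rpl39, Rpl3, Rpl23, Rps4x and Rpl9 fell (13.8% of all genes) and Rpl27 (0.67, adjusted p = 0.0444) rose (12.9%). In MT486 cells no gene was called without the block (2.54% of all genes; 2 of the 81 and 14.5% of all genes with an unadjusted p under 0.05; 0 and 6.35% by DESeq2), and with it Rpl39 (−0.51, adjusted p = 0.00839), Rps3a1, Rpl9 and Rps9 fell (12.4%). Rplp0 had 532.6 and 421.7 CPM in MT194-Cre against 806.7 and 545.1 in MT194-GFP, and 711.1 and 458 in MT486-Cre against 866.1 and 500.2 in MT486-GFP. Each Cre library was below the GFP library of its experiment. The medians of the 81 genes were −0.10 and 0.02, and leaving out 1 library moved them across 0 (−0.31 without MT194-Cre 1 to 0.12 without MT194-GFP 1, and −0.20 without MT486-GFP 2 to 0.30 without MT486-GFP 1).

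Against EV-Cre, no gene was called without the block in MT194-Cre (0.225% of all genes), MT486-Cre (0.362%) or DMT-Cre (0.00724%). Unadjusted p-values under 0.05 numbered 5, 1 and 2 in edgeR (9.61%, 12.1% and 3.24% of all genes), and DESeq2 called 0 in each (2.19%, 3.67% and 0.0591%). With the block MT194-Cre had 5 genes higher (7.1% of all genes) and 7 lower (5.95%), and MT486-Cre 12 higher (9.55%) and 2 lower (8.34%). Rpl39 (0.56, adjusted p = 0.00838) and Rplp0 (0.52, adjusted p = 0.0113) were higher in MT486-Cre, and Rpl12 (−0.65, adjusted p = 0.00778) lower in MT194-Cre. DMT-Cre had 0 genes called with the block, where 0.413% of all genes were.

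Whether the response to Cre differed between constructs was tested as an interaction. For WT against EV no gene was called without the block (0.681% of all genes; 3 of the 81 and 11.7% of all genes with an unadjusted p under 0.05; 0 and 3.24% by DESeq2). With it 19 genes had a higher response in WT (9.37% of all genes) and 2 a lower one (7.93%). Rpl39 (1.04, standard error 0.18, adjusted p = 0.00109), Rpl23 (0.95, adjusted p = 0.00246) and Rplp0 (0.90, adjusted p = 0.00297) led the first, and the lower ones were Rpl10a (−0.83, adjusted p = 0.0162) and Rpl11 (−1.21, adjusted p = 0.046). Rpl11 had 2.613 and 2.731 CPM in EV-Cre against 1.377 and 1.902 in EV-GFP, while WT-Cre had 1.49 and 2.338 against 2.537 and 2.822 with GFP. These Rpl11 values rest on 24 to 66 reads per population library. Of the 50-base stretches, 30.2% were placeable for Rpl11 and 16.9% for Rpl10a. Others with a higher response included Rps4x, Rplp1, Rps2, Rpl6, Rpl8, Rps9, Rpl7, Rpsa, Rpl37rt, Rps3a1, Rpl36al, Rpl32, Rpl13a and Rpl31. For MT486 against EV, 1 gene was called with the block (1.62% of all genes called higher) and 0 without it (0.00724%). For MT194 and DMT no gene was called without the block (0.00724% each) or with it (0.992% and 0.00724%). Unadjusted p-values under 0.05 numbered 1, 1 and 2 for MT194, MT486 and DMT (3.22%, 5.18% and 1.15% of all genes), and DESeq2 called 0 in each (0.168%, 0.337% and 0.00724%).

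The experiments themselves differed in most of these genes. Experiment 2 had 12 genes higher (34.9% of all genes) and 52 lower (36.6%) than experiment 1, with a median of −0.40. At or above 10 CPM 2 were higher and 48 lower, and below it 10 higher and 4 lower. All genes at or above 10 CPM were called higher in 34.4% and lower in 44.9% (median −0.07), and those below it in 36% and 18.6% (median 0.15). A division by level appeared over all 20 populations, where 57 of the 81 genes varied with most of the others and 24 against them (median Pearson r of the gene with the other 80 above or below 0). Of the 24, 22 had under 10 CPM and their median placeable share was 24.8%, while 50 of the 57 had at least 10 CPM and a median of 46.8%. Rpl8 (median r 0.802) was highest, and Rpl10a (−0.666), Rpl24 (−0.643) and Rpl12 (−0.621) were among the lowest. In the clones 77 genes had a median above 0 and 4 below. These correlations share libraries, depth and normalization and describe them.

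Rps6, the target of S6 kinase, had 11.08 and 7.251 CPM in EV-Cre against 11.9 and 8.046 in EV-GFP, and 11.63 and 12.31 in WT-Cre, with an adjusted p of 0.879 for Cre in EV (edgeR). Rpl5 had 2.162 and 3.343 CPM in EV-Cre against 2.507 and 2.389 in EV-GFP, and Rplp2 83.25 and 65.21 against 93.31 and 64.46. Some paralogs were as well measured as their namesakes. Rpl7 had 87.04 and 70.91 CPM in EV-Cre against 137.4 and 90.31 in EV-GFP, and its relative Rpl7l1 94.7 and 67.75 against 93.71 and 65.44, with log2 fold changes of −0.50 (adjusted p = 0.00186) and 0.03 (adjusted p = 0.78) by edgeR with the block. Per length, Rpl22 had 86.7 CPM per kb in the populations and Rpl22l1 24.1, and per placeable kb 98.1 and 71.2. For Rps27l and Rpl36al the order was reversed, with 62 and 21.1 CPM per kb against 5.21 for Rps27 and 1.47 for Rpl36a. No stretch of Rps27 was placeable, and 3.92% of those of Rpl36a against 43.2% for Rpl36al, so the order of neither pair can be taken as one of mRNA levels. Rpl36al fell in EV with the block (−0.38, adjusted p = 0.0308), and Rps19bp1, with 18.7 and 16.01 CPM in EV-Cre against 17.4 and 12.29 in EV-GFP, was not called (adjusted p = 0.732).

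Genes for building ribosomes were examined by list, beside 6.43% of all genes called higher after Cre in EV and 6.55% lower. Of 50 assembly factors, 22 rose and 0 fell in EV after Cre (median 0.55). With the block 41 rose and 0 fell. The unblocked count was 10 without EV-GFP 2, 14 without EV-Cre 2 and 15 without EV-Cre 1 or EV-GFP 1. Rrp12, which acts in export and maturation of both subunits, rose by 1.44 (standard error 0.16, adjusted p = 0.00012 in edgeR), and Nop56, a core protein of box C/D particles, by 1.33 (adjusted p = 0.00101). Nop56 had 104.2 and 143.8 CPM in EV-Cre against 48.53 and 49.83 in EV-GFP, and WT-Cre had 57.65 and 62.11. Of 14 genes of RNA polymerase I and its factors 3 rose, with Polr1e (0.82, adjusted p = 0.00909) and Polr1b (0.55, adjusted p = 0.0158) first. Of 17 regulators 2 rose, namely Myc, the transcription factor that drives ribosome production, by 1.74 (adjusted p = 3.27e-05), and Larp1, which binds TOP mRNAs, by 0.55 (adjusted p = 0.0214). Myc had 227.8 and 203.9 CPM in EV-Cre against 72.12 and 57.1 in EV-GFP, and WT-Cre had 88.44 and 80.96. Elongation factors and other TOP mRNAs, 17 genes, had 0 calls without the block, with 2 higher and 7 lower with it (median −0.18, beside 21.2% and 21.8% of all genes with the block), among them Eif4b (−0.67, adjusted p = 8.63e-05 with the block). Of 26 initiation factors 1, Eif2b3 (0.85, adjusted p = 0.00852), rose. With the block 7 genes of the polymerase I list rose and 0 fell, 7 regulators rose and 1 fell, and 6 initiation factors rose and 1 fell. Among 3 other ribosome genes outside the naming rule, Fau rose (0.80, adjusted p = 0.0185) and Gnb2l1, the RACK1 gene, had −0.21 (adjusted p = 0.731).

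The same lists in the other comparisons were as follows. In WT cells Cre called 0 genes of these lists without the block. With it 7 rose (2.35% of all genes), namely Myc (0.47, adjusted p = 0.0123), Eif4ebp1, Bop1, Nop58, Dkc1, Eif2b2 and Eif3d, and Eif4a2 (−0.45, adjusted p = 0.00596) fell (3.26%). In DMT 18 assembly factors rose and 0 fell (median 0.53, where 4.9% of all genes rose), 5 to 10 with 1 library left out. In MT194 and in MT486 3 rose (1.94% and 1.17% of all genes). With the block 42, 22 and 30 rose in DMT, MT194 and MT486 (20%, 12.9% and 10.8% of all genes). In WT-Cre against EV-Cre 13 assembly factors were lower and 0 higher (median −0.29, where 3.85% of all genes were lower), and 10 without EV-Cre 1, 2 without EV-Cre 2, 3 without WT-Cre 1 and 0 without WT-Cre 2. With the block 29 were lower and 2 higher (19.8% and 20.3% of all genes). Without it they were led by Rrp12 (−0.96, adjusted p = 0.00333) and Gnl3 (−0.66, adjusted p = 0.00375), and Myc was lower (−1.35, adjusted p = 0.00042). The elongation and TOP list had a median of 0.41 there, with 0 called without the block and 11 higher with it (20.3% of all genes), of which Pabpc1 (0.67) and Eif4b (0.78) had the smallest p (1.71e-05 and 2.36e-05 with the block, 0.101 and 0.097 without). Of 9 fibroblast markers tested 0 were called in EV without the block, and 1 higher and 4 lower with it, beside the 21.2% and 21.8% of all genes.

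In the stable clones the comparison of Δ-C60 with WT(N48), which share a vector by the labels, asked whether these genes differ without the C terminus. The summed share was 0.99%, 1.03% and 0.809% in the Δ-C60 clones and 1.17%, 1.22% and 1.24% in the WT(N48) clones (means 0.944% ± 0.119 and 1.21% ± 0.0328, SD, n = 3), without overlap. Gene by gene no ribosomal protein gene was called, nor was any of the 13223 genes tested (0%), with 8 of the 81 at an unadjusted p under 0.05 in edgeR (11.6% of all genes) and 0 called by DESeq2 (1.73%). The median was −0.20, with 28 genes above 0 and 53 below, and 52.8% of all genes were above 0. Rpl10, which completes the large subunit late in assembly, had 5.135, 7.116 and 7.256 CPM in Δ-C60 and 14.86, 10.39 and 11.07 in WT(N48) (log2 −0.90, adjusted p = 0.254), and Rps9 193.9, 188 and 184.9 against 292.8, 275.2 and 241.2 (−0.51, adjusted p = 0.262).

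Against the libraries labelled WT, whose share was 1.2%, 1.42% and 1.22%, 7 genes were lower in Δ-C60 (8.64% of the 81, where 3.24% of all genes were called lower) and 0 higher (5.14% of all genes), with a median of −0.22. The fit to these groups alone called 0, and scaling by library size alone called 13 with a median of −0.42. The 3.24% and 5.14% of all genes are from the main fit, and no share of all genes is given for these other fits. Rpl3, close to the peptidyl transferase center, had 17.45, 20.23 and 27.74 CPM in Δ-C60 and 45.75, 64.1 and 36.53 in WT (log2 −1.16, standard error 0.22, adjusted p = 0.0135 in edgeR). Rps9, in the mRNA channel, had 193.9, 188 and 184.9 CPM against 325.4, 313.2 and 324 (−0.76, adjusted p = 0.0178). Rpl23 (−0.77, adjusted p = 0.0189), Rpl13 (−0.82, adjusted p = 0.0329), Rps27a, which is made as a fusion with ubiquitin (−0.90, adjusted p = 0.0343), Rpl19 (−0.61, adjusted p = 0.0408) and Rpl32 (−0.56, adjusted p = 0.0489) were the others. Only Rpl3 was called with each library left out in turn (adjusted p 0.0128 to 0.0442). Calls numbered 1 without WT clone 1 or 3, 2 without WT clone 2, and 5 to 8 without a Δ-C60 clone. No share of all genes is given for these fits, so the counts show only how far the calls depend on single clones. With WT clones 1 and 3, the ones low in Nelfb, both left out, 0 genes were called and the median was −0.40 from 1 remaining WT clone. Of 50 assembly factors 2 were lower, Nob1 (−0.82, adjusted p = 0.0442) and Npm1 (−0.69, adjusted p = 0.0468), and 2 of 9 fibroblast markers higher, Fn1 (1.61, adjusted p = 0.0417) and Col5a1 (1.07), beside 5.14% of all genes called higher. Taf1c (−0.85, adjusted p = 0.0292) of the polymerase I list was lower and Mdm2 (0.97, adjusted p = 0.0296) of the regulators higher. In WT(N48) clones both were called in the same direction against these WT libraries (Taf1c −0.94, adjusted p = 0.0414, and Mdm2 1.02, adjusted p = 0.0477), and between Δ-C60 and WT(N48) the values were 0.09 and −0.05 (adjusted p = 0.906 and 0.963, all by edgeR).

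**Figure D5:**
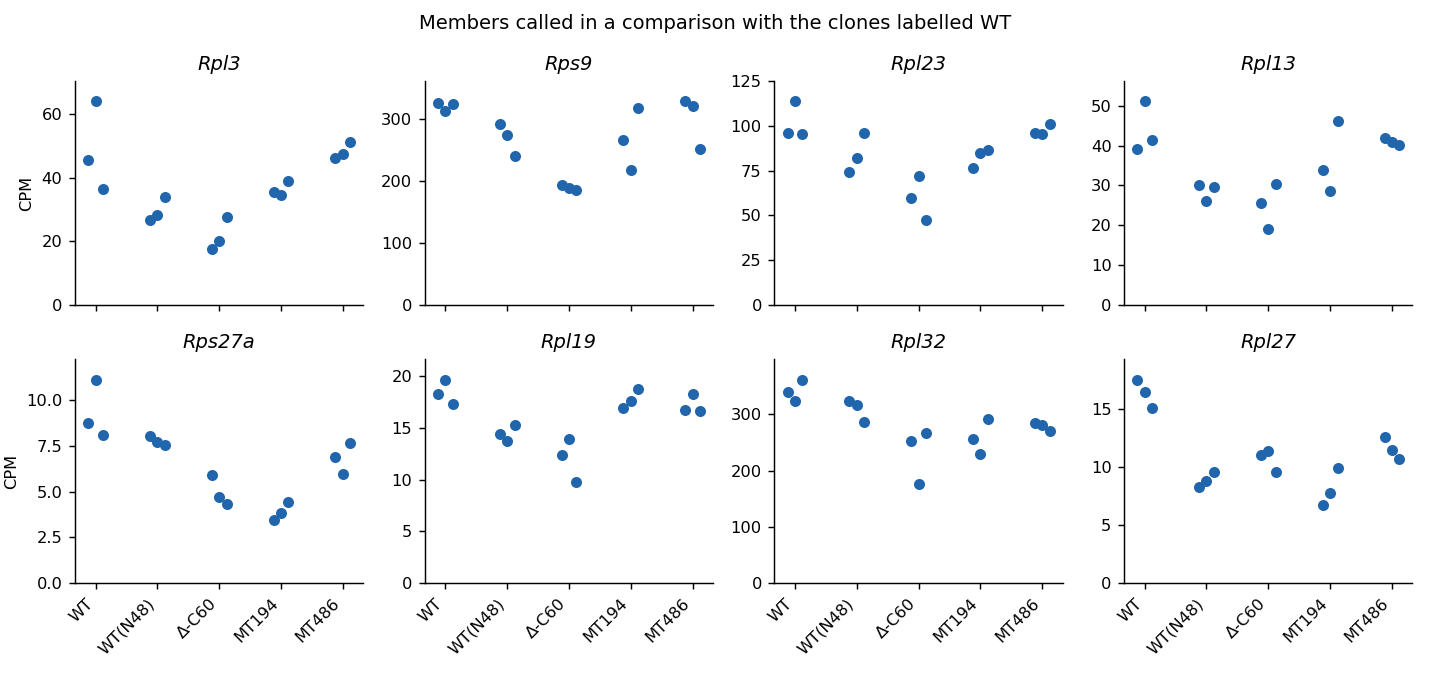
CPM of the 8 genes called in a comparison with the libraries labelled WT, in the 3 clones of each construct (axes from 0). All 3 Δ-C60 clones lie below the 3 WT clones for each of the 8 genes, and all 3 MT194 clones do for Rps27a, Rpl27, Rpl23 and Rpl32. The genes were chosen by their calls against these WT libraries, so the separation adds no support to the calls.

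MT194 clones had 2 genes lower than WT (1.63% of all genes) and 0 higher, with a median of −0.28 and shares of 1.09%, 0.959% and 1.27%. Rps27a had 3.474, 3.843 and 4.404 CPM in MT194 and 8.759, 11.12 and 8.067 in WT (log2 −1.25, adjusted p = 0.0244 in edgeR), and Rpl27 6.753, 7.781 and 9.91 against 17.57, 16.47 and 15.12 (−1.01, adjusted p = 0.0274). Rpl27 was also the 1 gene lower in WT(N48) (0.93% of all genes), with 8.318, 8.844 and 9.564 CPM (−0.88, adjusted p = 0.0414), and the median there was −0.11. Both comparisons use the same WT libraries. The calls were lost without any 1 of the WT clones or without clone 1 or 2 of MT194 or WT(N48), at adjusted p of 0.0568 to 0.123 in MT194 and 0.0874 to 0.152 in WT(N48).

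Of 50 assembly factors, 16 were lower in the MT194 clones than in WT and 0 higher (median −0.77, 47 below 0, beside the 1.63% of all genes). Nop2, which methylates the large ribosomal RNA, had 66.4, 70.36 and 91.99 CPM in MT194 and 180.8, 191.4 and 208.7 in WT (log2 −1.34, adjusted p = 0.0195 in edgeR), and Npm1, the nucleolar protein nucleophosmin, 131.2, 231.8 and 182.3 against 394.8, 407.6 and 339.8 (−1.07, adjusted p = 0.0234). The other 14 were Heatr1, Bysl, Wdr43, Rrp9, Pno1, Noc2l, Tcof1, Ppan, Nop16, Nop14, Nolc1, Nop56, Rrp1b and Rrp12. Polr1a (−0.99, adjusted p = 0.0195) and Polr1b (−0.92, adjusted p = 0.0388) of the polymerase I list and Eef1d (−0.75, adjusted p = 0.0422) of the elongation list were lower as well. The 16 calls became 1 without WT clone 1, 0 without WT clone 2, WT clone 3 or MT194 clone 1, 2 without MT194 clone 2 and 19 without MT194 clone 3, while the median stayed between −0.90 and −0.67, and 0 were called with WT clones 1 and 3 both left out (median −0.86). In WT(N48) 1 assembly factor, Noc2l (−1.0, adjusted p = 0.0439), was lower, and in MT486 0 were called.

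In MT486 clones no gene was called (0% of all genes; 5 of the 81 and 8.89% of all genes with an unadjusted p under 0.05; 2 and 1.23% by DESeq2), and the median was −0.03. The smallest p there belonged to Rpl41, with 259.2, 257.7 and 165.5 CPM against 118, 134.5 and 117.6 (0.88, adjusted p = 0.158), and Rps26, with 251.6, 262.6 and 153.2 against 134.6, 96.09 and 126.6 (0.90, adjusted p = 0.233). The 2 high values of either gene came from the 2 MT486 clones that resemble each other. Clone 3 also lay above the WT libraries. So did the WT(N48) clones, with 201.7, 195.5 and 204.2 CPM for Rpl41 and 192.5, 193 and 181.9 for Rps26. The Δ-C60 clones did for Rpl41 (174.4, 142.6 and 161.1) but not all for Rps26 (160.3, 150 and 133.7). The MT194 clones overlapped the WT libraries, with 102.8, 129.9 and 133.9 for Rpl41 and 99.48, 154 and 123.2 for Rps26.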

How the data were processed

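Poly(A) mRNA libraries were sequenced as 50-base single reads from 20 populations and 15 clones. The authors aligned them with bowtie2 to mm10, skipped alignments of mapping quality under 30, and deposited raw HTSeq read counts per gene symbol, without normalization; versions and HTSeq's strand setting are not given in the sources used here, so overlapping antisense genes are uncertain. By the study's methods DESeq2 followed.

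From these counts, edgeR 4.0.16 gave CPM (TMM), log2 fold changes, standard errors (size over the root of F) and p-values (R 4.3.3; filterByExpr, robust quasi-likelihood), separately for populations (13805 genes) and clones (13223). HTSeq's no-feature and ambiguous rows (9.14% to 21.3% and 0.911% to 1.13% of reads) stayed out. Clone p-values cover the spread between clones. Alternatives were DESeq2 1.42.0, its size factors, library size alone, TMM without these genes, no filter, a log2 threshold of 0.5, the groups alone, the replicate block and each library left out. Leaving out libraries for the assembly factor counts was added after seeing the data. The block rests on the 2 independent experiments of the study: deviations correlated over 0.1 in 45 of 45 pairs of groups (0.517 to 0.824), but in 1, 1 and 2 of 10 pairs of clones. The block was not the main design.

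Placeable stretches used GENCODE vM21 (86 genes matched by symbol) and start windows RefSeq GRCm38.p6 (67 matched). Marker and ribosome lists, and the genes themselves, were chosen with earlier results of these data known. Named genes were Nelfb, paralogs, stalk and 5S genes, Rps6, Rpsa, the 5 highest and lowest per length, the 5 smallest p per direction among called genes or 2 if none, genes called in an interaction, and 2 per other list. Other named genes (Rpl12, Rpl24, Rpl28, Rps13, Rps28 and further called genes, with the example values) were chosen after their values were seen. Some genes that this rule names are not reported here, and counts and medians include them. Steps were tested on simulated counts.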

Additional observations from a re-analysis of the deposited data

Results flagged for a closer look

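A difference between constructs in the response to Cre, tested as an interaction with the experiment as a block, flagged 21 ribosomal protein genes for WT against EV. Of these, 19 had a higher response in WT and 2 a lower one, beside 9.37% and 7.93% of all genes. The interaction was 1.04 on the log2 scale for Rpl39, 0.95 for Rpl23 and 0.90 for Rplp0, and −0.83 for Rpl10a and −1.21 for Rpl11, the last from 24 to 66 reads per population library. For MT486 against EV the interaction flagged 1 gene as higher, which is 1.23% of the 81 tested, beside 1.62% of all genes. None of these was called without the block.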

How the results depend on the processing

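No median, count or single call tested changed sign under an alternative other than leaving out a library, and both scalings kept the sign of every median tested under them. Depth limits the genes under 100 reads, and 7 genes had too few reads to be tested. With the replicate block as the pairing, calls numbered 30 for Cre in EV, 18 in DMT, 7 in MT194 and 4 in MT486. They numbered 51, 12 and 14 for WT, MT194 and MT486 against EV-Cre, and 21 and 1 for the interactions of WT and MT486. Of all genes, the block called 21.2% higher and 21.8% lower for Cre in EV, and 20% and 20.8% in DMT. In MT194 it called 12.9% and 13.8%, and in MT486 10.8% and 12.4%. Against EV-Cre it called 20.3% and 19.8% for WT, 7.1% and 5.95% for MT194, and 9.55% and 8.34% for MT486. For the interactions it called 9.37% and 7.93% (WT) and 1.62% and 1.34% (MT486). The block changed no other count in the populations by over 1.5 times. In the clones, which the numbers do not pair, the block left 4 calls for Δ-C60 and 0 for MT194 and WT(N48) against WT. No share of all genes is given for the block in the clones. DESeq2 called 4 genes for Cre in EV (17.8% of all genes), 6 for WT-Cre against EV-Cre (13.8%), and 4, 2 and 3 for MT194, MT486 and WT(N48) clones (9.64%, 1.23% and 9.49%). Its size factors in edgeR gave 2 for Cre in EV. With a log2 fold change over 0.5, 19 genes were called between the experiments. The 34.9% of all genes called higher and 36.6% lower there are from the test without this threshold. The groups alone gave 0 for EV, DMT and Δ-C60 against WT and 2 for WT(N48). Library size alone gave 0 for DMT and for WT-Cre against EV-Cre, and 13 with a median of −0.42 for Δ-C60 against WT. Apart from the population block and DESeq2, no share of all genes is given under the alternatives, left-out libraries included. Those counts show how far the calls depend on processing, not how these genes stand beside all genes. Without a filter, counts were 0 for EV, DMT, WT-Cre against EV-Cre and WT(N48), and 4 for Δ-C60 against WT; more genes were then tested. Without WT clones 1 and 3, 0 genes were called for Δ-C60, MT194 and WT(N48), and medians were −0.40, −0.19 and −0.25 for Δ-C60, MT486 and WT(N48). Other causes were not tested.

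With 1 library left out, calls ran from 0 to 2 in EV, 0 to 0 in DMT, 0 to 1 for WT-Cre against EV-Cre, 1 to 8 for Δ-C60 against WT, 0 to 1 for Δ-C60 against WT(N48), 0 to 2 for MT194 clones, and 0 to 1 for MT486 and for WT(N48) clones; medians ran from −0.20 to 0.30 for Cre in MT486 and from −0.19 to 0.30 for MT194-Cre against EV-Cre. A lone remaining library was assumed to vary like the other groups. Without the 5 genes with the most reads (Rpl8, Rpl4, Rplp0, Rps3 and Rplp1), mean shares were 0.299% in EV-Cre, 0.364% in EV-GFP, 0.447% in WT-Cre, 0.399% in WT-GFP, 0.327% in MT194-Cre, 0.373% in MT194-GFP, 0.358% in MT486-Cre, 0.36% in MT486-GFP, 0.311% in DMT-Cre and 0.373% in DMT-GFP, and in the clones 0.653% for WT, 0.594% for MT194, 0.686% for MT486, 0.619% for WT(N48) and 0.499% for Δ-C60. These population means pool both experiments, which differed in level. The share without mitochondrially encoded genes gave no other value, since the files list 0 such symbols.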
